A study of Mus musculus with 9 samples.

Results

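The genes described here encode the translation initiation and elongation factors of mouse CD4+ T cells. They are the protein-coding genes of GENCODE M21 whose symbols begin with Eif followed by a digit from 1 to 6, or with Eef1 or Eef2. The count table held 67 such genes among 47937 gene IDs, and 62 of them had enough counts to be tested among 12536 genes. This rule reads symbols and no measured value, although it was set with earlier results of these data known.

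RNA-seq counts were available for 9 libraries in 3 groups of 3. In the first group, Th0_TEPP, CD4+CD62L+ T cells from C57BL/6 spleen were preincubated for 15 min with TEPP-46, a small molecule that activates the glycolytic enzyme pyruvate kinase M2, and then activated with plate-bound antibodies to CD3 and CD28; Th0 by convention means that no polarizing cytokine is added. The labels give TEPP-46 as a range of 50 to 100 µM and not per library. In the second group, Th0_Ctrl, cells were activated in the same way after preincubation with the solvent DMSO. The third group, Resting, was CD4+CD62L+ T cells labelled as resting, and whether they were cultured is not stated. Cells were isolated on magnetic beads, and the labels name no genetic change. The labels do not state activation time, mouse age or whether each library came from a separate animal, so p-values measure the spread between these libraries, which may be technical. Replicates carry the numbers 1, 4 and 5.

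Translation begins when initiation factor eIF2, loaded with GTP and the initiator tRNA, joins the small ribosomal subunit together with eIF1, eIF1A, eIF3 and eIF5. The eIF4 factors bring the mRNA: eIF4E holds its cap, eIF4G is the scaffold and eIF4A is the helicase, while the 4E-binding proteins keep eIF4E from eIF4G until the kinase mTORC1 phosphorylates them. In elongation eEF1A delivers aminoacyl-tRNA, the eEF1B subunits reload it with GTP, and eEF2 moves the ribosome along. Naive T cells translate little, and activation through the antigen receptor is known to raise protein synthesis strongly.

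Promoters are shown first for genes that carry CACGTG, the palindromic E-box bound by MYC with MAX, because MYC is a known activator of initiation factor genes in dividing cells. RefSeq promoters on GRCm38.p6 could be matched for 51 of the 67 factors, and the 250 bases before each listed start were searched on both strands. The motif was found in 11 of 51 factors (21.6%) and in 1854 of 27025 genes in the promoter table (6.86%). A gene counted if any of its listed starts held the motif, and genes differed in their number of starts. The 27025 genes outnumber the 23436 gene IDs with any count here, so they include genes silent in these cells. The shares were not matched for expression or number of starts, so they are not like for like. The 11 were Eef2, Eef2k, Eif1b, Eif3f, Eif3k, Eif4a1, Eif4e, Eif4g1, Eif4h, Eif5a and Eif5a2. The stress-response motif TGATGNAA, read by ATF4, was in 2 of 51 factors (3.92%), Eef2k and Eif2s3x, against 3.91% of all genes. A match is a string of letters and not a measured binding site. The first 3 sequences belong to the factors with CACGTG that were higher in control Th0 cells than in resting cells. The last belongs to Eif4a1, a factor with the motif whose level did not pass the test in any comparison. Each is written 5′ to 3′ along the gene's strand and ends just before the start site, with CACGTG in capitals. They lie at chr10:81176381-81176630 on the plus strand for Eef2, chr3:138527018-138527267 on the plus strand for Eif4e, chr11:69921387-69921636 on the minus strand for Eif5a, and chr11:69672424-69672673 on the minus strand for Eif4a1.
Eef2: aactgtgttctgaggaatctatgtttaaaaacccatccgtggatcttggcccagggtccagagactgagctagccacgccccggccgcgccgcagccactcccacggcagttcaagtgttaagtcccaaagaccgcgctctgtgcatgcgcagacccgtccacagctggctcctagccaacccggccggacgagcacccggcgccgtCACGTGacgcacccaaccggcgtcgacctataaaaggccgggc
Eif4e: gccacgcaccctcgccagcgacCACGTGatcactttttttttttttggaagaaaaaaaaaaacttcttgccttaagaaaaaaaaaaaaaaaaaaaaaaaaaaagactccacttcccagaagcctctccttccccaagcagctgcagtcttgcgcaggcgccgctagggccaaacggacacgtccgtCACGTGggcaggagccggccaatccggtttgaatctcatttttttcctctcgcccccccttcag
Eif5a: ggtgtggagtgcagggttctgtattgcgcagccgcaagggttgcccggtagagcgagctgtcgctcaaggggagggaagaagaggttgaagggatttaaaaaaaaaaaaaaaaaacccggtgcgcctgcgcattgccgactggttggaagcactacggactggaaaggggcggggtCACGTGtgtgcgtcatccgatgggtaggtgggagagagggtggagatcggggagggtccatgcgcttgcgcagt
Eif4a1: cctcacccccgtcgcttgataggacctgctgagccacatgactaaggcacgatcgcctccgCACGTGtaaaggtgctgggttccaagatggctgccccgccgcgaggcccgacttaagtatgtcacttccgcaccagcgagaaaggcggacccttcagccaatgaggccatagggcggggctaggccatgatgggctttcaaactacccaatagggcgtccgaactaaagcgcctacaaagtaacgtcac
The motif's first base was 43 bases before the start in Eef2, 74 in Eif5a and 189 in Eif4a1. Eif4e held it at 228 and at 64 bases before the start shown, 1 of its 2 listed starts. For Eif5a the start shown is 1 of 6 listed. Whether the motif also preceded the other starts of these genes was not counted. Of the factors that were higher in control Th0 than in resting cells, 10 had a promoter in the table and 3 of these held the motif. Of those lower in TEPP-46 than in control Th0 cells, 6 had a promoter and 1, Eif5a, held it.

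Levels are given as CPM, the count scaled to equal library totals, after scaling by library size factors. Library totals ran from 2397304 to 5030643 counts, so that 3 counts correspond to 0.601 to 1.26 CPM. Per kilobase of exon, Eef1a1 was the highest factor in each group, with means of 1260, 1493 and 1040 CPM per kb in TEPP-46 Th0, control Th0 and resting cells. Eef2 averaged 749, 1033 and 453 CPM per kb, and Eif5a 387, 750 and 461 CPM per kb, in the same groups. The lowest factor tested was Eif3j2, at 0.413, 1.27 and 0.666 CPM per kb, a gene that shares sequence with Eif3j1 and whose counts are therefore uncertain. The 5 factors that were not tested were Eef1a2, Eif2s3y and Eif4e1b, with no count in any library, and Eef1akmt3 and Eif4ebp3. Eef1akmt3 had 0, 4 and 7 counts and Eif4ebp3 had 0, 1 and 9 counts, summed over the 3 libraries of TEPP-46 Th0, control Th0 and resting cells.

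The TEPP-46 libraries stood apart from each other, and every result against them has to be read with this. Summed over 82 ribosomal protein genes, TEPP-46 libraries 1, 4 and 5 held 35458, 8525 and 17549 CPM, against 22511 to 29114 CPM in control Th0 and 15988 to 22419 CPM in resting libraries. The nuclear RNA Malat1 stood at 2521, 12240 and 12770 CPM in those TEPP-46 libraries, against 2058 to 4103 CPM in control Th0 and 4354 to 8349 CPM in resting libraries. The activation marker Il2ra had 830, 272 and 309 CPM in TEPP-46 libraries 1, 4 and 5, 1443, 1649 and 1483 CPM in control Th0 libraries and 28.4, 65.2 and 35.8 CPM in resting libraries. The 6 CD4 T cell markers summed to 5135 to 6215, 3034 to 4055 and 3654 to 6843 CPM in TEPP-46 Th0, control Th0 and resting libraries. The platelet and red cell markers summed to 9.31, 208 and 53.5 CPM in TEPP-46 libraries 1, 4 and 5, to 0 in each control library and to at most 8.15 CPM in resting libraries. The B cell markers, most of it Ighm, summed to 702 to 1054, 225 to 251 and 1688 to 1859 CPM in TEPP-46 Th0, control Th0 and resting libraries. The myeloid markers summed to 11.8 to 28, 12.2 to 17.6 and 35.5 to 51.5 CPM, the NK cell markers to 4.6 to 25.8, 0 to 0.251 and 8.61 to 16.2 CPM, and the CD8 T cell markers to 3.87 to 11.2, 8.03 to 10 and 9.01 to 22.1 CPM in the same groups. The myeloid markers did not move together. Lyz2 and Csf1r were lower in each TEPP-46 library than in each resting library, and Itgam overlapped. Cd14 went the other way, at 1.37, 8.79 and 9.99 CPM in TEPP-46 libraries 1, 4 and 5. It was at 0 to 0.478 CPM in control Th0 and 0.801 to 1.05 CPM in resting libraries. The NK cell sum in TEPP-46 libraries was nearly all Klrd1, at 11, 4.6 and 25.5 CPM in libraries 1, 4 and 5, against 5.61, 4.73 and 5.17 CPM in resting libraries. Klrb1c was at 0 in each TEPP-46 library and at 2.8, 3.16 and 10.6 CPM in resting libraries. Ncr1, an NK cell receptor, was at 0 in all control Th0 libraries and in 2 of 3 TEPP-46 libraries, and the haemoglobin genes Hba-a1 and Hbb-bs were at 0 in all activated libraries. The part of these differences in the results below was not tested. In whole-population RNA, fewer cells of one type and less RNA per cell cannot be told apart.

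Control Th0 cells had higher levels of the factors than resting cells in the median. Across the 62 factors the median log2 fold change was 0.32, and over all 12536 genes it was -0.04. In edgeR's quasi-likelihood test, at a Benjamini-Hochberg adjusted p of 0.05 over all genes, 12 factors (19.4%) were higher and 3 (4.84%) were lower. The background was 15.5% of all genes higher and 15.8% lower, 31.2% in either direction, so the share of higher factors was near that of all genes and the share of lower factors was below it. By sign alone 44 factors were above 0 and 18 below. Values of the control Th0 and resting libraries did not overlap for 27 factors higher in control Th0 and 11 lower, together 61.3%, against 29.2%, 30% and 59.2% of all genes tested.

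TEPP-46 Th0 cells had lower levels than control Th0 cells for 9 factors (14.5%) and higher levels for 0, against 6.43% and 9.72% of all genes tested by edgeR. DESeq2 and limma-voom also called 0 factors higher, and 1 factor was higher at an unadjusted p under 0.05. The median log2 fold change of the factors was -0.31, and that of all genes was 0.04. Values of the 2 groups did not overlap for 23 factors lower and 4 higher in TEPP-46 Th0 cells, together 43.5%. Of all genes, 20% were lower and 19.7% higher without overlap, together 39.7%. When libraries were scaled to their total counts only, the calls over all genes were 924 higher and 1183 lower in place of 1219 and 806, the median of all genes moved by -0.13, and 16 factors were lower and 0 higher.

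In TEPP-46 Th0 against resting cells 4 factors passed, and this count moved with the processing, to 12 without TEPP-46 library 1, 7 without TEPP-46 library 4, 2 without resting library 4 or 5, 10 by DESeq2 and 2 with only these groups in the fit. Among the 4, 2 factors (3.23%) were higher and 2 (3.23%) lower, against 6.37% and 3.92% of all genes, or 10.3% in either direction. The median log2 fold change was -0.05 over the factors and 0.02 over all genes. Non-overlapping values were seen for 8 factors higher and 11 lower in TEPP-46 Th0 cells, together 30.6%, against 12.6%, 14.1% and 26.8% of all genes. The comparisons share libraries in pairs, so their calls are not independent of each other. In all, 19 of the 62 factors passed the test in at least 1 comparison, against 38.5% of all 12536 genes, so calls in any comparison were not more frequent among the factors.

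**Figure D1:**
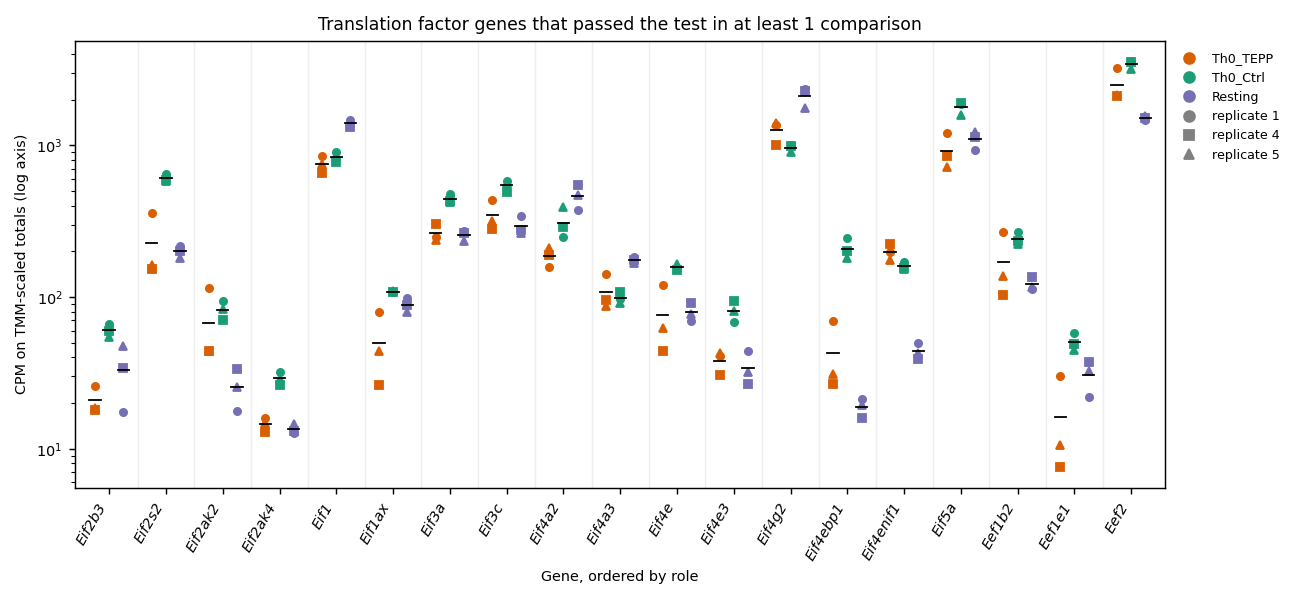
CPM on a log axis for the 19 factors that passed the test in at least 1 comparison, where colours are groups, point shapes are replicate numbers, and the short line is the group mean. Control Th0 libraries of Eif4ebp1 lie at 180.5 to 244 CPM, above the TEPP-46 and resting libraries, and Eif4enif1 is lowest in resting libraries.

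The 4E-binding proteins held the factor with the greatest fold change tested, Eif4ebp1. Eif4ebp1 (ENSMUSG00000031490.5; chromosome 8, 27260329 to 27276674, GRCm38) encodes 4E-BP1, the repressor that sequesters eIF4E. It had 69.8, 26.8 and 30.9 CPM in TEPP-46 libraries 1, 4 and 5, 244, 200.3 and 180.5 CPM in control Th0 libraries, and 21.2, 16 and 19.4 CPM in resting libraries. The 3 groups did not overlap, with control Th0 at the top and resting at the bottom. Control Th0 cells were 11-fold above resting cells (log2 fold change 3.46 ± 0.36, SE; adjusted p = 0.000277). TEPP-46 Th0 cells were 4.87-fold below control Th0 cells (-2.28 ± 0.35, SE; adjusted p = 0.00407). Against resting cells the TEPP-46 value was 1.18 ± 0.35, with an adjusted p of 0.0562. Both calls passed with each library left out in turn, at adjusted p up to 0.0025 and 0.0248.

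Eif4enif1, which encodes the 4E-transporter that carries eIF4E into the nucleus, was high in both activated groups. Its levels were 199, 222 and 177 CPM in TEPP-46 libraries, 171, 155 and 153 CPM in control Th0 libraries, and 49.9, 39.2 and 42.7 CPM in resting libraries. Both activated groups were above resting cells without overlap, 4.53-fold for TEPP-46 Th0 (adjusted p = 0.000624) and 3.63-fold for control Th0 (adjusted p = 0.000254). TEPP-46 Th0 libraries were each above the control Th0 libraries, but the log2 fold change of 0.32 ± 0.18 did not pass (adjusted p = 0.247). Eif4ebp2, which encodes the related repressor 4E-BP2, averaged 111 ± 44.4, 94.7 ± 6.86 and 94.9 ± 8.77 CPM in TEPP-46 Th0, control Th0 and resting cells (SD, n = 3 each), and its groups overlapped. Eif4ebp3 had too few counts to test.

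Among the cap-binding factors 5 of 11 tested passed in at least 1 comparison, which 38.5% of all genes did. Eif4e, the cap-binding protein itself, had 121, 44.3 and 62.8 CPM in TEPP-46 libraries, 154, 151 and 166 CPM in control Th0 libraries, and 69.5, 90.7 and 77.3 CPM in resting libraries. Control Th0 cells lay above both other groups, whose values overlapped each other. The log2 fold change of control Th0 over resting cells was 0.99 ± 0.32 (adjusted p = 0.0383) and that of TEPP-46 over control Th0 was -1.04 ± 0.32 (adjusted p = 0.0502, short of the threshold). A near-identical gene copy held 4.57% of the counts of the pair. The first call was lost without any 1 of the control Th0 or resting libraries, at an adjusted p up to 0.109.

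Eif4e3, a cap-binding relative of eIF4E, had 40.8, 30.5 and 42.5 CPM in TEPP-46 libraries, 68.9, 93.7 and 80.3 CPM in control Th0 libraries, and 44.3, 26.6 and 31.9 CPM in resting libraries. It was 2.36-fold higher in control Th0 than in resting cells (adjusted p = 0.00574) and fell by 1.09 on the log2 scale in TEPP-46 Th0 against control Th0 cells (adjusted p = 0.0209). The second call was lost without control Th0 library 1, 4 or 5 or TEPP-46 library 5 (adjusted p up to 0.0912). The gene Gm20696 overlaps 14.8% of its exons on the same strand and shares a near-identical stretch with it, and held 26.78% of the counts of the pair, so the level of Eif4e3 is uncertain to that extent. Eif4e2, which encodes the cap-binding repressor 4EHP, averaged 143 ± 24.2 CPM in TEPP-46 Th0, 110.4 ± 6.79 CPM in control Th0 and 105 ± 6.73 CPM in resting cells (SD, n = 3 each). It passed in no comparison, although each TEPP-46 library was above each control Th0 and resting library.

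Eif4g2 encodes DAP5, an eIF4G relative without the eIF4E-binding site. Its levels were 1368, 998 and 1400.1 CPM in TEPP-46 libraries, 1003, 987 and 897 CPM in control Th0 libraries, and 2351, 2269 and 1751 CPM in resting libraries. Control Th0 cells were 2.21-fold below resting cells without overlap (log2 fold change -1.14 ± 0.22, adjusted p = 0.00435). The TEPP-46 Th0 value against resting cells was -0.76 ± 0.22 (adjusted p = 0.0542). The scaffold Eif4g1 averaged 311 ± 52.7, 359 ± 23 and 344 ± 3.53 CPM in TEPP-46 Th0, control Th0 and resting cells (SD, n = 3 each), with overlapping libraries.

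Of the 3 eIF4A helicase genes 2 passed in at least 1 comparison, against 38.5% of all genes. Eif4a2 had 158, 189 and 209 CPM in TEPP-46 libraries, 247, 291 and 389 CPM in control Th0 libraries, and 376, 543 and 472 CPM in resting libraries. TEPP-46 Th0 cells were 2.5-fold below resting cells (log2 fold change -1.32 ± 0.24, adjusted p = 0.00968), and their value against control Th0 cells was -0.74 ± 0.24 (adjusted p = 0.0569). Eif4a3, the helicase at the core of the exon junction complex, averaged 108 ± 29.3 CPM in TEPP-46 Th0, 98.4 ± 8.27 CPM in control Th0 and 175 ± 7.86 CPM in resting cells (SD, n = 3 each). It fell by 0.83 ± 0.22 on the log2 scale in control Th0 against resting cells (adjusted p = 0.0158), a call lost without control Th0 library 1 or 5 (adjusted p up to 0.0777). Eif4a1 had 764, 300.0 and 442 CPM in TEPP-46 libraries, 574, 695 and 684 CPM in control Th0 libraries, and 506, 736 and 624 CPM in resting libraries, and passed in no comparison. Near-identical copies held 5.56% of the counts of Eif4a1 and its copies.

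**Figure D2:**
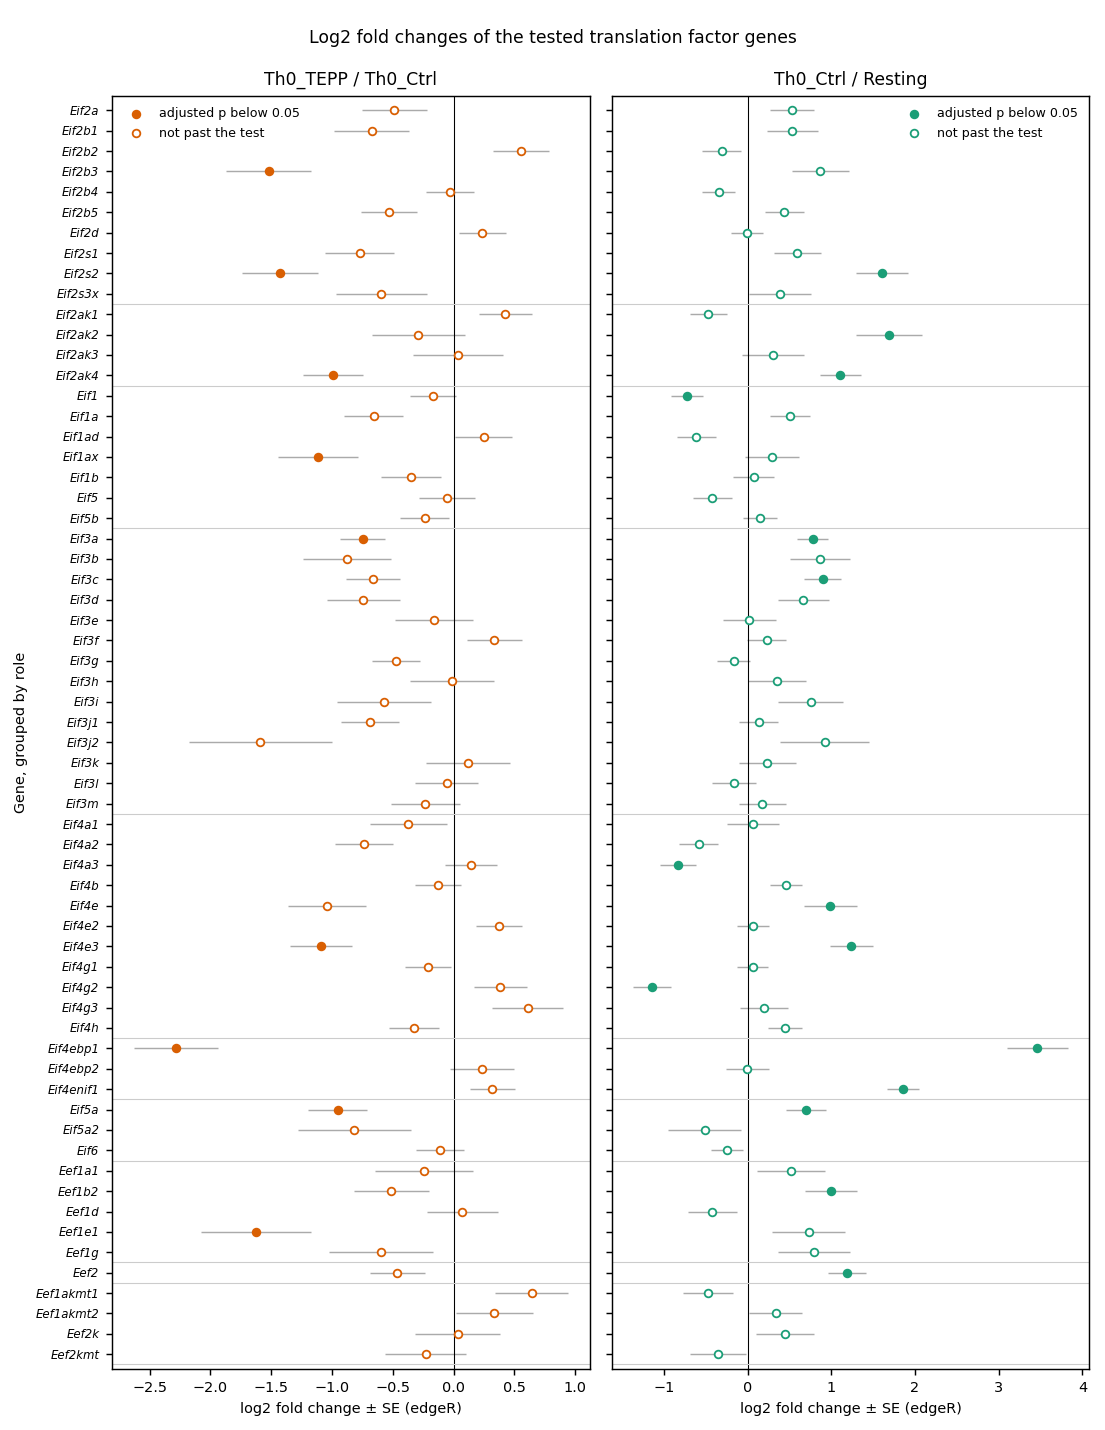
Log2 fold change (x axis) with its standard error for each of the 62 tested factors, grouped by role down the page, in TEPP-46 Th0 over control Th0 cells on the left and control Th0 over resting cells on the right. Filled points have an adjusted p below 0.05, and Eif4ebp1 lies farthest from 0 among filled points, at -2.28 on the left and 3.46 on the right.

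The subunit genes of eIF2 and of its exchange factor eIF2B were grouped with Eif2a and Eif2d, which do not encode such subunits. Among the 10 tested in this group 2 passed in at least 1 comparison, which 38.5% of all genes did. Eif2s2 encodes the beta subunit of eIF2. It had 360.1, 152 and 163 CPM in TEPP-46 libraries 1, 4 and 5, 648, 590.4 and 584 CPM in control Th0 libraries, and 217, 200.4 and 182 CPM in resting libraries. TEPP-46 and resting libraries overlapped, and control Th0 lay above both. Control Th0 cells were 3.04-fold above resting cells (log2 fold change 1.60 ± 0.31, adjusted p = 0.0044), and TEPP-46 Th0 cells 2.69-fold below control Th0 cells (-1.43 ± 0.31, adjusted p = 0.0155). The second call was lost without control Th0 library 1, 4 or 5 or TEPP-46 library 5, at an adjusted p up to 0.0695.

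Eif2s1, the alpha subunit that the stress kinases phosphorylate, averaged 151 ± 70.2, 258 ± 14.7 and 171 ± 15.1 CPM in TEPP-46 Th0, control Th0 and resting cells (SD, n = 3 each). The X-linked gamma subunit Eif2s3x averaged 36.9 ± 22, 56.1 ± 8.45 and 42.9 ± 10.9 CPM in the same groups. Neither passed in any comparison. The log2 fold change of TEPP-46 over control Th0 cells was -0.77 ± 0.29 for Eif2s1 (adjusted p = 0.0877) and -0.59 ± 0.38 for Eif2s3x (adjusted p = 0.287).

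Eif2b3, which encodes the gamma subunit of eIF2B, had 26, 18 and 18.7 CPM in TEPP-46 libraries, 66.7, 59.3 and 54.7 CPM in control Th0 libraries, and 17.4, 33.9 and 47.6 CPM in resting libraries. It was 2.87-fold lower in TEPP-46 than in control Th0 cells (adjusted p = 0.0191), a call lost without control Th0 library 1, 4 or 5 or TEPP-46 library 5 (up to 0.0752). Eif2b2, the beta subunit, averaged 89.3 ± 27.1 CPM in TEPP-46 Th0, 60.9 ± 4.54 CPM in control Th0 and 75.4 ± 4.52 CPM in resting cells (SD, n = 3 each). Its log2 fold change of 0.55 ± 0.23 in TEPP-46 over control Th0 did not pass (adjusted p = 0.124).

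Of the 4 kinases that phosphorylate eIF2, 2 passed in at least 1 comparison, which 38.5% of all genes did. Eif2ak2 encodes PKR, the interferon-induced kinase that senses double-stranded RNA. It had 114, 44.3 and 43.8 CPM in TEPP-46 libraries, 93.8, 71 and 83.1 CPM in control Th0 libraries, and 17.6, 33.7 and 25.6 CPM in resting libraries. Both activated groups were above resting cells, 2.64-fold for TEPP-46 Th0 (adjusted p = 0.0482) and 3.23-fold for control Th0 (adjusted p = 0.00967). The TEPP-46 call was kept without TEPP-46 library 4 or 5 and lost without any other library, at an adjusted p up to 0.139. It was also lost with limma-voom, with only these groups in the fit and with a replicate block, at an adjusted p up to 0.137.

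Eif2ak4 encodes GCN2, the kinase that senses uncharged tRNA. It had 15.9, 13 and 14.8 CPM in TEPP-46 libraries, 32, 26.3 and 28.9 CPM in control Th0 libraries, and 12.6, 13.1 and 14.6 CPM in resting libraries. The control Th0 libraries were about 2-fold above both other groups, with a log2 fold change of 1.11 ± 0.25 over resting cells (adjusted p = 0.00799) and of -0.99 ± 0.25 for TEPP-46 over control Th0 cells (adjusted p = 0.0261). The second call was lost without control Th0 library 1, 4 or 5 or TEPP-46 library 5 (adjusted p up to 0.103). Eif2ak1, the haem-regulated kinase, averaged 113 ± 20.9 CPM in TEPP-46 Th0, 84.2 ± 4.58 CPM in control Th0 and 117 ± 24.8 CPM in resting cells (SD, n = 3 each). It passed in no comparison, and neither did the endoplasmic reticulum stress kinase Eif2ak3. A gene that shares a near-identical stretch with Eif2ak1 held 30.42% of the counts of that pair. The search took both strands and kept neighbours, and Aimp2 overlaps 8.6% of the exons of Eif2ak1 on the opposite strand. Whether reads were shared depends on the strand setting, which is not stated.

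Of 7 factors in start-site scanning and subunit joining, 2 passed in at least 1 comparison, against 38.5% of all genes. Eif1, which guards the accuracy of start codon choice, had 844, 652 and 752 CPM in TEPP-46 libraries, 905, 774 and 848 CPM in control Th0 libraries, and 1460.3, 1314 and 1411 CPM in resting libraries. Both activated groups were below resting cells without overlap, by -0.90 ± 0.19 on the log2 scale for TEPP-46 Th0 (adjusted p = 0.0181) and -0.73 ± 0.19 for control Th0 (adjusted p = 0.0169). The TEPP-46 call was lost without resting library 4 or 5 or TEPP-46 library 5 (adjusted p up to 0.0675), and the control Th0 call without resting library 5 or control Th0 library 4 or 5 (up to 0.0814). Near-identical copies of Eif1 in 13 other genes held 8.98% of the counts of the family, so its level is uncertain to that extent. Eif1ax had 79.1, 26.4 and 44.1 CPM in TEPP-46 libraries, 108, 108 and 109.7 CPM in control Th0 libraries, and 98.6, 88.6 and 79.3 CPM in resting libraries. It encodes eIF1A, and fell by 1.11 ± 0.33 on the log2 scale in TEPP-46 against control Th0 cells (adjusted p = 0.044), a call kept without TEPP-46 library 1 and lost without any other library (up to 0.144).

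The eIF3 complex, the largest initiation factor, holds the small subunit and the other factors together. Of its 14 genes 2 (14.3%) were higher in control Th0 than in resting cells, against 15.5% of all genes. In TEPP-46 against control Th0 cells 1 (7.14%) was lower, against 6.43% of all genes. Eif3a, the largest subunit, had 247, 303 and 236 CPM in TEPP-46 libraries, 474, 426 and 419.7 CPM in control Th0 libraries, and 271, 263 and 234 CPM in resting libraries. Its control Th0 libraries lay above all others, by 0.78 ± 0.19 on the log2 scale over resting cells (adjusted p = 0.0103). TEPP-46 Th0 over control Th0 cells gave -0.75 ± 0.19 (adjusted p = 0.025), a call lost without control Th0 library 1, 4 or 5 or TEPP-46 library 5 (up to 0.0964). TEPP-46 Th0 over resting cells gave 0.03 ± 0.18. Eif3c, which forms the core of the complex with Eif3a, had 437, 281 and 318 CPM in TEPP-46 libraries, 585, 492 and 564 CPM in control Th0 libraries, and 343, 275 and 262 CPM in resting libraries. It rose by 0.90 ± 0.22 in control Th0 over resting cells (adjusted p = 0.0125), a call lost without resting library 4 or 5 or control Th0 library 5 (up to 0.0554). In TEPP-46 over control Th0 cells its value was -0.66 ± 0.22 (adjusted p = 0.0646).

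Eif3b, the scaffold subunit, varied widely within the TEPP-46 and resting groups, with 372, 443 and 194 CPM in TEPP-46 libraries, 646, 618 and 588 CPM in control Th0 libraries, and 209, 294 and 511 CPM in resting libraries, and did not pass. Eif3d, Eif3g, Eif3j1 and Eif3j2 were also below control Th0 without overlap in TEPP-46 libraries and did not pass, and 43.3% of the exons of Eif3d overlap a gene on the opposite strand. Eif3f had 560.3, 375 and 426 CPM in TEPP-46 libraries, 290.4, 403 and 388 CPM in control Th0 libraries, and 262, 348 and 314 CPM in resting libraries. Its groups overlapped between control Th0 and each of the others.

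**Figure D3:**
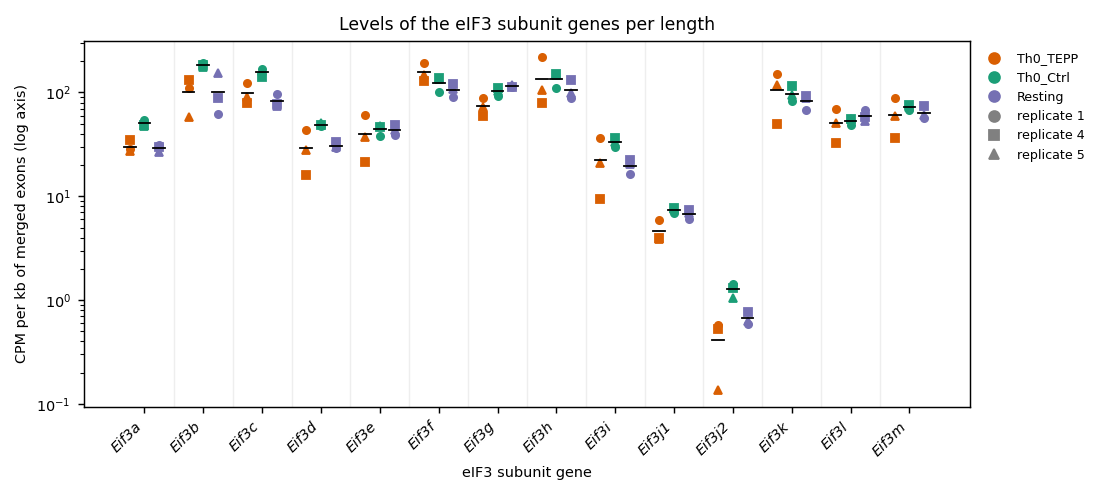
Level of each of the 14 eIF3 genes in CPM per kb of exon on a log axis, where colours are groups, point shapes are replicate numbers, and the short line is the group mean. Control Th0 libraries of Eif3a lie above all other libraries, and Eif3j2 is the lowest gene, with group means of 0.413, 1.27 and 0.666 CPM per kb in TEPP-46 Th0, control Th0 and resting cells.

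Eif5a encodes the factor that helps ribosomes through stretches poor for peptide bond formation and carries the modified residue hypusine. Its levels were 1198, 847 and 715 CPM in TEPP-46 libraries, 1863, 1909.7 and 1574 CPM in control Th0 libraries, and 932, 1139.7 and 1215 CPM in resting libraries. Control Th0 lay above both other groups, which overlapped. Control Th0 over resting cells gave 0.70 ± 0.24 (adjusted p = 0.0479), a call lost without any 1 of the control Th0 or resting libraries (up to 0.138). TEPP-46 over control Th0 cells gave -0.95 ± 0.24 (adjusted p = 0.0268), a call lost without any 1 control Th0 library or TEPP-46 library 4 or 5 (up to 0.104). Its paralogue Eif5a2 averaged 4.68 ± 2.5, 8.35 ± 2.75 and 11.9 ± 2.22 CPM in TEPP-46 Th0, control Th0 and resting cells (SD, n = 3 each), and Eif6, which keeps the large ribosomal subunit from joining early, 165 ± 24.6, 178 ± 12.2 and 211 ± 31.1 CPM. Neither passed in any comparison.

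Among elongation factors, Eef2 had 3222, 2095 and 2155 CPM in TEPP-46 libraries, 3586, 3514 and 3199 CPM in control Th0 libraries, and 1462, 1508 and 1550.0 CPM in resting libraries. Control Th0 cells were 2.28-fold above resting cells without overlap (log2 fold change 1.19 ± 0.23, adjusted p = 0.00428). The TEPP-46 libraries also lay above all resting libraries, but 0.73 ± 0.23 did not pass (adjusted p = 0.0701). TEPP-46 over control Th0 cells gave -0.46 ± 0.23 (adjusted p = 0.178), with TEPP-46 library 1 inside the control range. Eef2k, the kinase that inhibits eEF2, passed in no comparison, and nor did the methyltransferase genes among the factors.

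The TEPP-46 libraries were far apart in the genes of eEF1. Eef1a1 had 5526, 1526 and 2369 CPM in TEPP-46 libraries 1, 4 and 5, 3203, 4240.4 and 3719 CPM in control Th0 libraries, and 2294, 3058 and 2424 CPM in resting libraries. TEPP-46 library 1 was above all other libraries and library 4 below them, and no comparison passed. Near-identical copies held 0.92% of the counts of Eef1a1 and its copies, and 5.32% for Eef1g. Eef1g, a subunit of eEF1B, had 715, 192 and 234 CPM in TEPP-46 libraries, 524, 635 and 570.3 CPM in control Th0 libraries, and 266, 395 and 337 CPM in resting libraries. Eef1b2, the exchange subunit of eEF1B, averaged 169.9 ± 87.6, 243 ± 23.2 and 121 ± 12.1 CPM in TEPP-46 Th0, control Th0 and resting cells (SD, n = 3 each). It rose in control Th0 over resting cells by 0.998 ± 0.31 on the log2 scale (adjusted p = 0.0348), a call lost without any 1 of the control Th0 or resting libraries (up to 0.107). Eef1e1, which despite its symbol encodes a scaffold protein of the tRNA synthetase complex, had 30.1, 7.53 and 10.6 CPM in TEPP-46 libraries, 57.9, 49.2 and 44.4 CPM in control Th0 libraries, and 22, 37.1 and 32.3 CPM in resting libraries. It was 3.09-fold lower in TEPP-46 than in control Th0 cells (adjusted p = 0.036), a call kept without TEPP-46 library 1 or resting library 1 and lost without any other (up to 0.129).

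Taking the 62 tested factors library by library, TEPP-46 library 1 was near the control Th0 mean and libraries 4 and 5 were below it. The median log2 difference from the control Th0 mean was -0.12, -0.73 and -0.51 in TEPP-46 libraries 1, 4 and 5, against -0.00064 to 0.04 in control Th0 libraries. In resting libraries 1, 4 and 5 it was -0.47, -0.24 and -0.26, while over all genes it stayed between -0.03 and 0.04 in all 9 libraries. In TEPP-46 libraries 1, 4 and 5, 32, 48 and 46 of the 62 factors were below the control Th0 mean. For eIF3 the medians in these libraries were -0.005, -0.92 and -0.59, and for eEF1 0.32, -1.28 and -0.81. For eIF2 with eIF2B, a group that also holds Eif2a and Eif2d, they were -0.07, -1.15 and -0.78. For the cap-binding factors they were -0.20, -0.03 and -0.25. The order of the medians over all factors, eIF3, eIF2 with eIF2B and eEF1 was that of the ribosomal protein sums, from highest to lowest in libraries 1, 5 and 4. That of the cap-binding factors was not, and the part of the ribosomal protein sums in the result was not tested. Without TEPP-46 library 1, 26 factors were lower and 1, Eif4g3, higher than in control Th0 cells, while 2134 of all 12982 genes then tested were lower and 2274 higher. Without library 4, 6 factors were lower and 2 higher, with 732 of all 12899 genes lower and 1044 higher. Without library 5 only Eif4ebp1 passed among the factors, with 216 of all 12942 genes lower and 431 higher. Eif4ebp1 was also the only factor that passed without control Th0 library 1, 4 or 5. With size factors computed without ribosomal protein, mitochondrial and Malat1 counts, a scaling chosen after the data were seen, 9 factors were again lower and 0 higher.

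**Figure D4:**
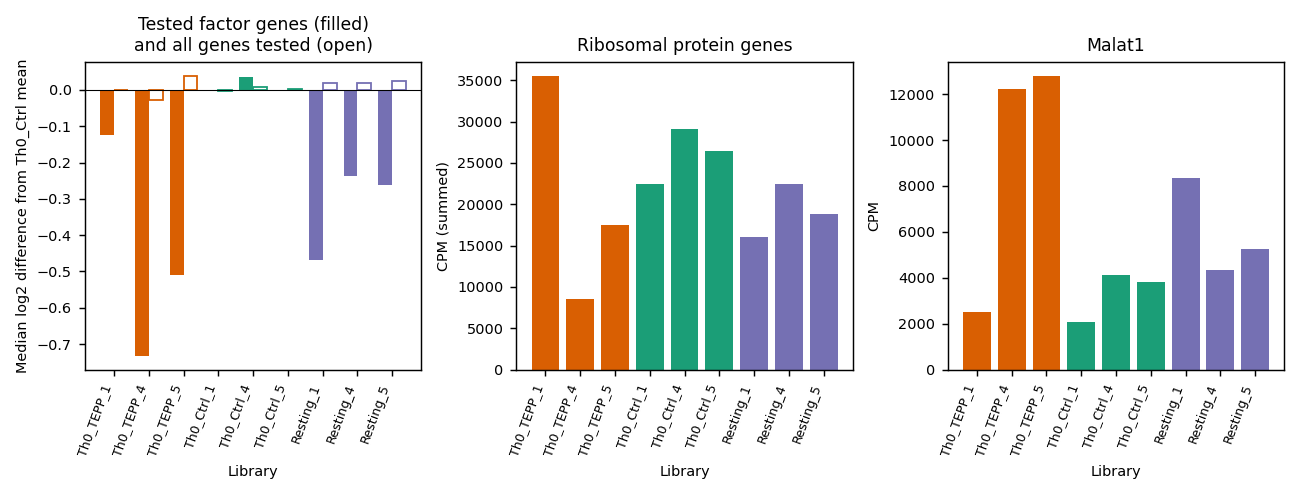
The left panel shows the median log2 difference from the control Th0 mean in each library over the 62 tested factors (filled bars) and all 12536 genes (open bars), and the other panels show the summed CPM of 82 ribosomal protein genes and the CPM of Malat1. TEPP-46 library 1 lies at -0.12 over the factors and libraries 4 and 5 at -0.73 and -0.51.

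Ratios of paralogues within a library were taken from log2 CPM with a prior count of 2 added to each gene. Apart from this prior count, which draws ratios with low genes such as Eif5a2 toward 0, they do not depend on the library's scaling. Of 11 paralogue pairs 9 could be computed, giving 27 comparisons between groups, and in 14 the libraries of the groups did not overlap. No background of ratios between other genes was computed. For levels of single genes, non-overlap was common, at 59.2% of all genes tested in control Th0 against resting cells. It was 39.7% in TEPP-46 against control Th0 and 26.8% in TEPP-46 Th0 against resting cells. The count of 14 is therefore not read as a trait of the pairs. With 3 libraries a group the exact two-sided permutation test cannot go below p = 0.1, which adjusts to 0.193 over the 27 comparisons, so no ratio can pass at 0.05. The log2 ratio of Eif4e to the repressor Eif4e2 was -0.48, -1.44 and -1.15 in TEPP-46 libraries, 0.41, 0.41 and 0.69 in control Th0 libraries, and -0.51, -0.31 and -0.43 in resting libraries. The difference was -1.53 between TEPP-46 and control Th0 cells and 0.92 between control Th0 and resting cells, each with non-overlapping libraries (exact permutation p = 0.1). Eif4ebp1 to Eif4ebp2 was -0.28, -2.58 and -1.48 in TEPP-46 libraries, 1.36, 0.98 and 1.03 in control Th0 libraries, and -2.27, -2.40 and -2.24 in resting libraries. All control Th0 libraries were above 0 in this ratio and all others below. Per kilobase, Eif4ebp1 stood at 19.4, 94.9 and 8.6 CPM per kb and Eif4ebp2 at 19.3, 16.4 and 16.4 CPM per kb in TEPP-46 Th0, control Th0 and resting cells.

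Eif4a1 to Eif4a2 was 2.27, 0.67 and 1.08 in TEPP-46 libraries, 1.22, 1.25 and 0.81 in control Th0 libraries, and 0.43, 0.44 and 0.40 in resting libraries. Every activated library was above every resting library in this log2 ratio, and the activated groups overlapped (exact permutation p = 0.9), with a difference of 0.24 that became -0.22 without TEPP-46 library 1. Eif4g1 to Eif4g2 was higher in control Th0 than in resting cells by 1.19, and Eif4g1 to Eif4g3 differed by -0.76 between TEPP-46 and control Th0 cells on the log2 scale, both without overlap (exact permutation p = 0.1).

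**Figure D5:**
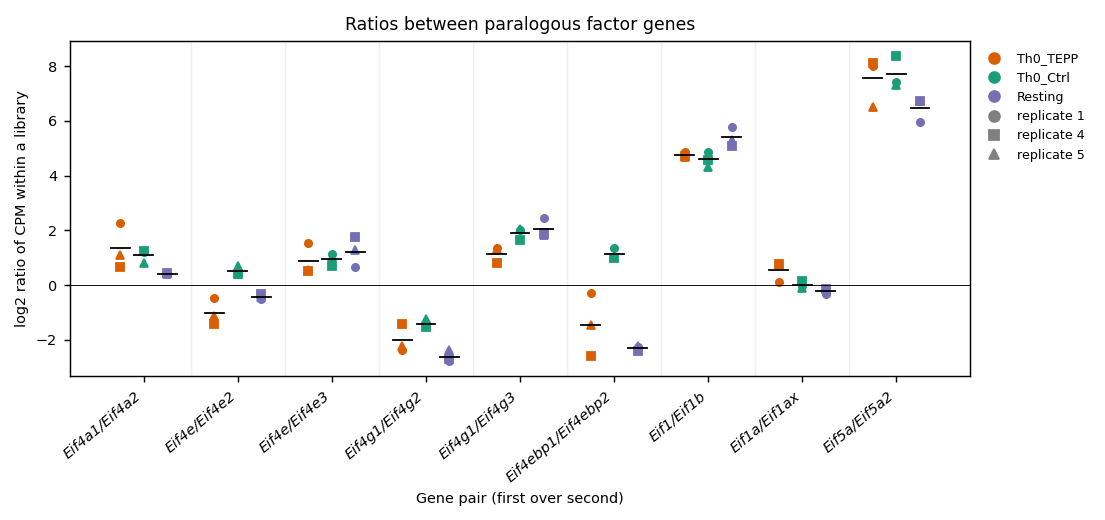
Log2 ratio of CPM, with a prior count of 2, within each library for 9 pairs of paralogues. Colours are groups, point shapes are replicate numbers, and the short line is the group mean. For Eif4e to Eif4e2, control Th0 libraries lie at 0.41 to 0.69 and all others below 0.

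Other genes of translation and its control were described from a list of 45, of which 43 were tested. In control Th0 against resting cells 3 were higher and 9 lower, with a median log2 fold change of -0.22; the shares of all genes were 15.5% and 15.8%. In TEPP-46 against control Th0 cells 2 were higher and 4 lower, with a median of -0.0026, against 9.72% and 6.43% of all genes. In TEPP-46 against resting cells 0 were higher and 2 lower, against 6.37% and 3.92% of all genes, and 6 had an unadjusted p under 0.05. Ppp1r15a encodes GADD34, the phosphatase subunit that reverses eIF2 phosphorylation. It had 68.5, 83.3 and 122.7 CPM in TEPP-46 libraries, 103, 139.8 and 156 CPM in control Th0 libraries, and 833, 1678 and 1851 CPM in resting libraries. Resting cells were above both activated groups, with log2 fold changes of -3.99 ± 0.37 for TEPP-46 Th0 (adjusted p = 0.000689) and -3.45 ± 0.36 for control Th0 (adjusted p = 0.000277). Gspt1, the release factor eRF3, averaged 129.98 ± 42.5 CPM in TEPP-46 Th0, 284 ± 13.4 CPM in control Th0 and 109 ± 44 CPM in resting cells (SD, n = 3 each). It rose by 1.39 ± 0.33 in control Th0 over resting cells (adjusted p = 0.0101) and fell by 1.13 ± 0.33 in TEPP-46 against control Th0 cells (adjusted p = 0.0408). The ribosome recycling factor Abce1 averaged 86.9 ± 26.4 CPM in TEPP-46 Th0 and 204 ± 10.2 CPM in control Th0 cells (SD, n = 3 each), a log2 fold change of -1.23 ± 0.26 (adjusted p = 0.0146). Secisbp2, which binds selenoprotein mRNAs, rose by 1.09 ± 0.31 in TEPP-46 over control Th0 cells (adjusted p = 0.0381).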

How the data were processed

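The values were raw counts per gene for 9 libraries, deposited by the authors as 1 table. Per the labels' protocols, libraries were made with a low-input NEBNext kit and sequenced on an Illumina HiSeq, and per the submitters' processing notes the build was GRCm38 and DESeq2 was used. Which aligner, counter, strand setting and gene annotation were used is not stated there. Of 47937 gene IDs 47224 took a symbol from GENCODE M21; Eef1akmt4, which the rule would include, was not analysed here.

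Counts were tested with edgeR 4.0.16 in R 4.3.3 (TMM scaling, filterByExpr at 10 counts and 15 in total, glmQLFit and glmQLFTest, a fit of 3 group means over all 9 libraries with 6 residual degrees of freedom), with Benjamini-Hochberg adjustment over 12536 genes and a threshold of 0.05. The biological coefficient of variation was 0.33. Standard errors were derived from the quasi-likelihood F. CPM are on TMM-scaled totals. Totals of 2397304 to 5030643 counts limit the precision of low genes, and 3-count floors cover counting error only. Near-identical copies are genes with at least 95% identity over at least 200 bases on either strand (BLAST+ 2.17.0). Genes that overlap a factor's own exons were not set aside. Alternatives were DESeq2 1.42.0, limma-voom (limma 3.58.1), other scalings and filters, the 2 groups alone, a replicate block and each library left out. The scripts were tested on simulated counts.

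The factors, their roles and the list of other translation genes were chosen with earlier results of these data known. Factors named in the text passed in any comparison (up to 4 of each role by the lowest adjusted p), were the most abundant of their role, or belonged to a paralogue pair; any others, such as Eif2s1, Eif2b2, Eif3d, Eif3f and Eef1g, were chosen after their values were seen. Other translation genes were named from the 6 with the lowest adjusted p in each comparison.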

Additional observations from a re-analysis of the deposited data

How the results depend on the processing

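Single factors were followed under 18 alternatives for 34 factors that passed in any comparison, led their role in abundance or belonged to a paralogue pair. Of 1728 such values, 1583 kept their side of the threshold, 90 fell short of it and 55 newly passed it. Most of the values were in comparisons that the factor had not passed, so 1583 does not measure how stable the calls were. Only a call can fall short, so all 90 came from the 15, 9 and 4 calls given below. The sign turned in 38 values, all of them in comparisons that the factor had not passed. Among 189 values of paralogue ratios, which no setting could bring past the threshold, the sign turned in 8, all where the libraries of the groups overlapped. In control Th0 over resting cells 15 factors passed, 26 with only the 2 groups compared and 9 to 22 with 1 library left out, the lowest without control Th0 library 5. In TEPP-46 over control Th0 cells 9 passed, 15 by DESeq2, 16 with total counts only, and 1 to 27 with 1 library left out. In TEPP-46 Th0 over resting cells 4 passed, 10 by DESeq2, 2 with only the 2 groups compared, and 2 to 12 with 1 library left out, the highest without TEPP-46 library 1, 7 without library 4, and the lowest without resting library 4 or 5. The cause was not tested. Scaling to total counts moved the median of all genes by 0.11 in control Th0 over resting and by -0.13 in TEPP-46 over control Th0 cells.

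With the replicate number as a block, 13, 6 and 3 factors passed in control Th0 over resting, TEPP-46 over control Th0 and TEPP-46 over resting cells. The calls that ended were Eif4e (adjusted p = 0.062 by edgeR) and Eif5a (0.0865) in control Th0 over resting cells, Eif5a (0.0514), Eef1e1 (0.0519) and Eif2ak4 (0.0527) in TEPP-46 over control Th0 cells, and Eif2ak2 (0.114) in TEPP-46 Th0 over resting cells, and no other factor's call changed. The numbers were not taken to pair the libraries, because the correlations of same-numbered deviations were not all above 0.1 in any comparison. They were 0.068, 0.089 and -0.026 in the first comparison, 0.058, 0.036 and 0.087 in the second and -0.106, -0.09 and -0.123 in the third. In the second, correlations between unlike numbers ran from -0.098 to 0.034, below each same-numbered value. A weak pairing in that comparison is therefore not excluded. At this depth 5 factors could not be tested.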
